A study of Triticum turgidum subsp. durum with 24 samples.

Results

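The comparison described here is between flag leaves of the durum wheat cultivar Cappelli under heat stress (HS) and flag leaves of Cappelli under control conditions, 3 arrays of each, chosen by their titles from the 24 arrays of a series on Cappelli and a second cultivar, Ofanto. HS plants were watered to a soil water content of 28% and brought in steps, through 30 °C in the light with 22 °C in the dark and then 34 °C with 26 °C, to 40 °C. Control plants had the same soil water at 19 °C in the light and 15 °C in the dark, and both groups had 15 h of light and 9 h of dark and came from pots sown with 12 seeds. Ofanto HS and Ofanto control, Cappelli under drought stress (DS, 12.5% soil water) and Cappelli under combined stress (CS, 12.5% soil water and 40 °C) are used only where they show how far a response belongs to Cappelli or to heat. The sample labels place the leaf at full expansion of leaf 3 and the paper at booting, and both sources also differ on the RNA extraction and the labelling kit. The paper's methods treat the arrays of a group as biological replicates, and no source used here says how many plants went into a sample. In leaf RNA, fewer cells of a type and less RNA per cell cannot be told apart.

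Heat unfolds proteins, and plants answer through heat shock transcription factors (HSFs), which bind the promoters of chaperone genes. Small heat shock proteins (sHSPs) hold unfolded proteins, HSP70 with DnaJ partners and HSP90 refold them, and HSP101 pulls them out of aggregates. In leaves, carbon fixation is among the processes that lose function early in heat, with rubisco activase as a known weak point.

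The Affymetrix Wheat Genome Array reports each transcript by a probe set (PS) of short oligonucleotides, and the deposited values are MAS5 signals, an intensity in arbitrary units. Of 61179 PSs that are not array controls, 28072 (45.9%) were tested: those over the array's own 60th percentile on each of the 3 arrays of at least 1 of the 8 groups. That percentile lay at 120 to 130 units on the HS arrays and at 129 to 139 on the control arrays, and a signal under it has no exact size. Where all 3 arrays of a group were under it, the size of a called PS is given as a lower bound ("at least"). That bound puts the percentile in place of the dim values. Where only part of them were, the difference is as fitted, with dim values at their deposited size, and is not exact. Malate synthase, asparagine synthetase 1, the FtsH protease, the coactivator like At3g24500, a fallen HSP101 PS and RPL34B are among these. Medians and ranges over several PSs also use fitted values. A PS was called where limma's moderated test gave a Benjamini-Hochberg adjusted p under 0.01 and the groups differed by at least 2-fold. Names are those of the best Arabidopsis match of a PS in the study's tables, 2088 PSs in all, so a name states a sequence similarity. Part of those names come from a table of up-regulated PSs in clusters that the study picked for contrasting trends between the cultivars. By its account their expression was highest in Cappelli under heat. Where a gene list holds such names, the counts are therefore also given over names from another table. These, from the part of it that is sorted by PS, are here called the sorted names. They were not picked for a rise, but that table lists PSs that the study found differentially expressed in this experiment. Counts over sorted names are thus not independent evidence of a change either.

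Among the 3 HS arrays, replicate 3 stood apart. Every PS named below as risen or fallen separated all HS arrays from all control arrays. Many were picked for that, and nearly all called PSs do so, which makes the separation no check on this array. Over the PSs tested, the log2 values of HS replicate 3 correlated at r = 0.923 to 0.934 with the other HS arrays, against 0.964 between those, and 0.962 to 0.965 between control arrays (each r is across PSs). The mean log2 signal of the poly-A spike-in controls was 11.45 on HS replicate 3, 10.33 and 10.45 on the other HS arrays and 10.07 to 10.44 on the control arrays. The median SD over PSs was 0.27 in HS and 0.19 in control on the log2 scale. As a check of RNA integrity, the log2 signal at the 3' end minus that at the 5' end, over 3 control genes, was 1.24 to 1.48 in HS and 1.44 to 1.64 in control, ranges that overlap. Without HS replicate 3 the test called 2936 PSs up and 3396 down.

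Relative to control, 3135 PSs rose in HS, 11.2 percent of all PSs tested, and 3805 fell, 13.6 percent, so that 24.7 percent moved in either direction. On the fitted scale, which counts signals under the percentile at their deposited size, 585 PSs rose and 1058 fell by at least 8-fold. Where both groups lay above the 60th percentile on all their arrays (18964 PSs), so that the size is measured on both sides, 2056 rose and 2033 fell, and 491 rose and 589 fell by at least 4-fold. A further 638 called PSs were above that percentile on every HS array and below it on every control array, and 938 were below it on every HS array and above it on every control array. The groups did not overlap for 3116 of the PSs that rose and 3791 of those that fell. Over all PSs tested, every HS array was above every control array for 29.2 percent and below for 30.6 percent, without regard to the call. Among the 7018 PSs with the lowest mean signal 8.68% rose and 14.3% fell, and among the 7018 with the highest 13.0% rose and 12.7% fell. The median difference over all PSs was -0.02 on the log2 scale as deposited, 0.05 after centring each array on its median and 0.04 after quantile normalization.

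Among the PSs tested that carry a name, 46.1 percent rose and 15.9 percent fell, 62 percent in either direction. Among the sorted names the shares were 26.7 and 27.3 percent, and these are the shares to set beside the counts over sorted names below.

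**Figure D1:**
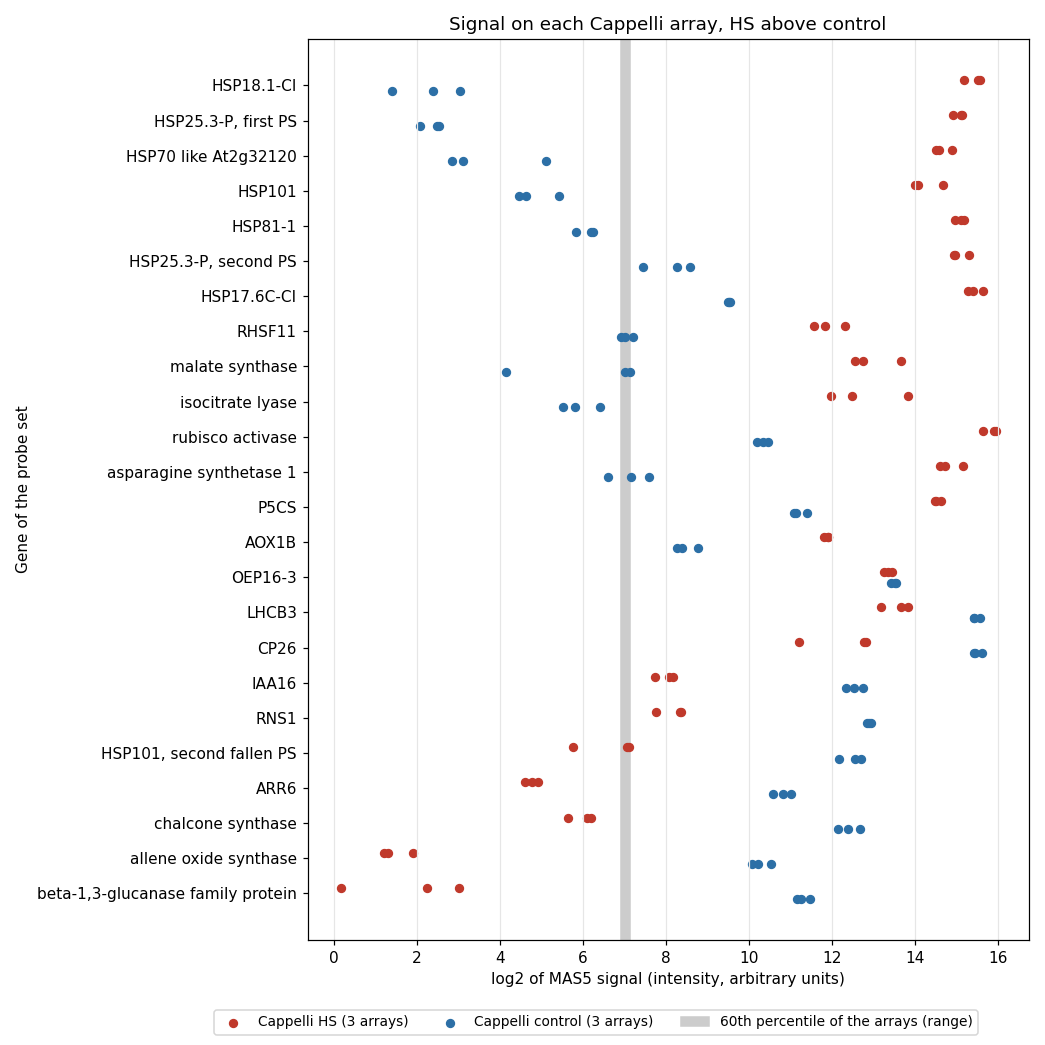
MAS5 signal of 24 named PSs on each Cappelli array on a log2 axis, HS (upper points of each line) above control (lower points), with the range of the arrays' 60th percentiles as a grey band. Chaperone and glyoxylate cycle genes lie at the bright end in HS and near or under the band in control, the order is the other way round for the genes at the foot of the plot, and the HS and control points of OEP16-3 lie together.

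sHSPs, which bind unfolded proteins without ATP, made up the sharpest rise. Of 24 PSs tested, 22 rose, none fell and the median difference was 8.23 on the log2 scale. The sorted names held 10 of them, of which 8 rose. Members of every compartment took part: cytosol, chloroplast, endoplasmic reticulum (ER) and mitochondrion. For 15 of the 22, all control arrays were under the 60th percentile and all HS arrays above it.

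HSP18.1-CI, a cytosolic class I protein, gave 48877, 36947 and 46851 units in HS against 8.19, 2.64 and 5.22 in control, at least 324-fold higher (adjusted p = 6.32e-12). Every HS array was among the brightest of the leaf transcripts, and every control array was near background. The chloroplast protein HSP25.3-P was measured by 2 PSs. One gave 35846, 30672 and 35049 units in HS against 4.21, 5.57 and 5.73 in control, at least 250-fold higher (adjusted p = 1.28e-10). The other lay above the percentile in both groups, at 31418, 31963 and 40650 units in HS and 174, 309 and 382 in control, a difference of 6.98 ± 0.26 on the log2 scale (SE, adjusted p = 7.29e-13). Both PSs thus separated HS from control on every array.

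HSP17.6C-CI shows the size of the class where control was well measured: 43151, 39559 and 50612 units in HS and 746, 734 and 720 in control, 5.91 ± 0.20 higher on the log2 scale (SE, adjusted p = 2.02e-13). HSP17.4-CI, the brightest sHSP over the 6 arrays, rose by 5.01. In the ER, HSP22.0-ER gave 30488, 28703 and 36033 units in HS against 49.7, 5.64 and 16.1 in control, at least 234-fold higher. In the mitochondrion, HSP23.5-M gave 1874, 2904 and 5262 units in HS and 190, 205 and 223 in control, a rise of 3.89. HSP26.5-P, named as an organelle form, was at least 47.0-fold higher. Not every class I sequence took part. A second PS matching HSP18.1-CI gave 587, 614 and 419 units in HS and 512, 547 and 699 in control, a difference of -0.13 with overlapping groups. A PS matching the sHSP At2g29500 differed by 0.68 with no overlap, under the 2-fold minimum.

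HSFs, the activators of chaperone genes, were measured by 4 PSs, of which 3 rose, among them the 1 of the sorted names. The rice-type factor RHSF11 gave 3015, 3619 and 5098 units in HS against 120, 148 and 129 in control, 4.85 ± 0.30 higher (SE, adjusted p = 3.78e-10), with 1 of the 3 control arrays above its percentile. A PS like At3g22830 gave 2826, 3602 and 8441 units in HS and 334, 320 and 321 in control, a rise of 3.76. HSF4 gave 2846, 3656 and 7111 units in HS and 1940, 1571 and 2411 in control, a rise of 1.11 that was 0.73 and no longer called without HS replicate 3, and 0.96 without control replicate 2. A PS like At2g26150 was 2.27 higher but missed the threshold (adjusted p = 0.0157), with all control arrays under the percentile. A coactivator like At3g24500, whose Arabidopsis counterpart is a multiprotein bridging factor known from heat responses, gave 10351, 13331 and 20489 units in HS and 200, 137 and 189 in control, a rise of 6.35 on the log2 scale.

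RHSF11 was also followed by PCR in the paper, in young plants under drought at tillering and not in heat. Its primers are shown because they mark the amplified part of the transcript. The amplicon is 106 bp long. The pair is set beside that of the control gene OEP16-3, whose PS gave 10480, 9798 and 11199 units in HS and 11988, 11053 and 11777 in control, a difference of -0.15 with overlapping groups. Each is written 5′ to 3′ in lower case with no part marked.
RHSF11 forward: gccgttccccttctctaatc
RHSF11 reverse: cataaactccaaaacatcacacg
OEP16-3 forward: gatgcacctagttcctttgcaa
OEP16-3 reverse: gcaagatatttattccaggtctgttg

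The large ATP-driven chaperones rose too, with exceptions that moved the other way. Among the PSs matching HSP101 (cytosolic) or ClpB (organellar), which unravel aggregates, 7 of 9 rose and 2 fell. HSP70 and HSC70 showed 12 of 15 up and 2 down, with a median difference of 6.65 on the log2 scale. The single HSP90 PS, HSP81-1, gave 37149, 31997 and 35247 units in HS against 57.1, 75.2 and 72.8 in control, at least 257-fold higher (adjusted p = 2.27e-10). HSP90 holds client proteins such as kinases and receptors in a form ready for use. The sorted names held 2 of the HSP101 and ClpB PSs, 1 up and 1 down, and 1 of the HSP70 PSs, which fell.

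The PSs that match HSP101 moved in opposite directions. One gave 16406, 17359 and 26152 units in HS against 21.9, 42.8 and 24.5 in control, at least 144-fold higher. A fallen one gave 138, 134 and 53.8 units in HS against 6006, 4632 and 6622 in control, and fell by 5.83 in log2 (SE 0.36, adjusted p = 3.59e-10). Another gave 51.9, 75.8 and 18.6 units in HS and 1204, 2132 and 1456 in control, at least 12.5-fold lower. All 3 separated the groups on every array, in opposite directions, and which transcript of the wheat HSP101 genes each PS reports is not known from the sources. Both fallen PSs were much lower in unheated Ofanto. Their means were 217 and 296 units in Ofanto control, against 5753 and 1598 in Cappelli control. ClpB was uniform: all 3 of its PSs rose, and the brightest gave 40580, 36156 and 39162 units in HS and 1819, 1920 and 1696 in control, a rise of 4.42 ± 0.14 (SE, adjusted p = 1.13e-13).

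A PS matching the HSP70 At2g32120 gave 23100, 24643 and 30251 units in HS against 8.55, 7.12 and 34.6 in control, at least 191-fold higher. The brightest HSP70, like At3g12580, rose by 4.31. In contrast a PS like At3g09440 gave 720, 693 and 336 units in HS and 3966, 2620 and 3336 in control, and fell by 2.56 in log2 (SE 0.26, adjusted p = 2.35e-07). HSC70-1, a cognate form made without stress, gave 1430, 2089 and 3885 units in HS and 5764, 5222 and 4408 in control, and fell by 1.17, no longer called without HS replicate 1 or control replicate 1, and 2 other PSs of the same Arabidopsis gene rose.

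Partners and folding machines of other kinds rose by smaller factors. DnaJ proteins, which load clients on HSP70, showed 11 of 16 up and none down (3 of 6 among the sorted names), led by a PS like At2g20560 with a rise of 3.60, while J3 rose by 1.91. Chaperonins and prefoldins, the barrel-shaped folding chambers and their feeders, showed 21 of 31 up and none down, all 31 measured in both groups (9 of 16 among the sorted names). CPN60 of the mitochondrion gave 11888, 11689 and 11377 units in HS and 952, 946 and 878 in control, a rise of 3.65 ± 0.14 (SE, adjusted p = 1.3e-12). Other co-chaperones showed 12 of 14 up (8 of 9 among the sorted names), led by an SGS domain protein with 19609, 19018 and 20057 units in HS and 888, 903 and 702 in control. The peptidyl-prolyl isomerase ROF1, an HSP90 partner in Arabidopsis, gave 30012, 29010 and 34341 units in HS and 820, 686 and 625 in control, a rise of 5.46. A PS like At4g16160, of the TIM17, TIM22 and TIM23 family of membrane import proteins, was at least 14.8-fold higher.

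The ER folding list was too small to give a direction: of 3 PSs tested, matching 2 Arabidopsis genes, none rose and 2 fell, both among the sorted names. Both fallen PSs have identifier numbers from 14750 to 15249, a run in which many PSs fell. HSP22.0-ER, an ER chaperone outside this list, rose. Calreticulin 3, a calcium-binding chaperone of glycoproteins, gave 14168, 13120 and 8069 units in HS and 33449, 32751 and 33532 in control, and fell by 1.54 (SE 0.16, adjusted p = 3.55e-07). Universal stress proteins, small nucleotide-binding proteins, showed 14 of 15 up and none down, 6 of 6 among the sorted names. One PS of that family, like At1g68300, gave 32914, 29669 and 36145 units in HS and 2492, 2925 and 3266 in control, a rise of 3.51.

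Proteolysis was drawn on in part. Proteases showed 35 of 59 up and 8 down, but 9 up and 8 down of 30 among the sorted names, close to the share of all sorted names. An FtsH protease, of the membrane-bound family that clears damaged photosystem proteins, gave 14066, 15797 and 21575 units in HS and 282, 260 and 102 in control, a rise of 6.43. The papain-like protease XBCP3 gave 42576, 35572 and 33180 units in HS and 598, 609 and 491 in control, 6.03 ± 0.22 higher (SE, adjusted p = 6.77e-13). Of 99 ubiquitin and proteasome PSs 34 rose and 8 fell, and 57 were not called (15 up and 8 down of 62 among the sorted names). F-box proteins, which choose targets for ubiquitin, stood at both ends, with a rise of 3.97 for one like At5g07610 and a fall of 1.55 for one like At1g27340.

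**Figure D2:**
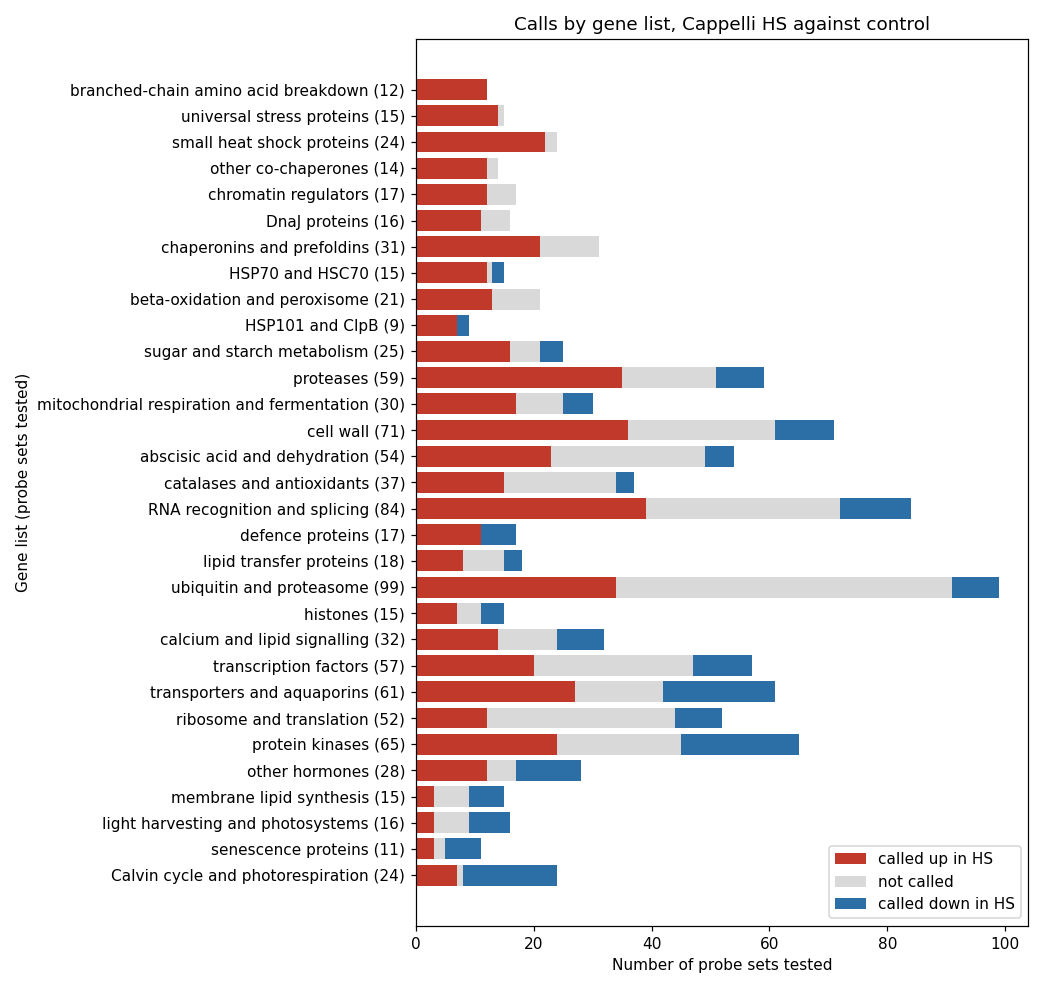
Number of PSs called up, not called and called down in HS against control for each gene list with at least 9 PSs tested (horizontal bars from 0, lists ordered by the share up minus the share down). Branched-chain amino acid breakdown, with 12 of 12 up and none of them a sorted name, and the chaperone lists stand at the top. The Calvin cycle and photorespiration list, which also holds cytosolic matches, stands at the foot with 16 of 24 down.

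In the light harvesting and photosystem list 7 of 16 PSs fell, 3 rose and 6 were not called, and the sorted names gave 7 down and none up of 13. In the Calvin cycle and photorespiration list 16 of 24 fell and 7 rose, with all 24 measured in both groups, and the sorted names gave 16 down and 1 up of 18. That list goes by enzyme name, whatever the compartment. It takes in fructose-1,6-bisphosphatase (4 of 4 PSs down) and aldolase (5 of 5 up), both by cytosolic matches, and serine hydroxymethyltransferase (4 of 4 down). Of the 4 chlorophyll synthesis PSs, all of sorted names, 1 fell. HS replicate 3 was the lowest HS array for several of these genes.

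CP26, a minor antenna protein of photosystem II, gave 7247, 6968 and 2339 units in HS and 50567, 44181 and 44823 in control, and fell by 3.24 (SE 0.38, adjusted p = 1.26e-06). The major antenna protein LHCB3 gave 14651, 13031 and 9259 units in HS and 48732, 43559 and 44176 in control, and fell by 1.91. Both lay lower on every HS array than on any control array. A protein of the PsbQ family, related to the oxygen-evolving complex, gave 1954, 1740 and 939 units in HS and 12867, 11366 and 8970 in control, and fell by 2.89. GLK1, a transcription factor that drives antenna and chlorophyll genes in Arabidopsis, gave 437, 458 and 314 units in HS and 1803, 1466 and 1260 in control, and fell by 1.91. Geranylgeranyl reductase, which makes the chlorophyll tail, fell by 1.63.

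Sedoheptulose-1,7-bisphosphatase, which regenerates the CO2 acceptor of the Calvin cycle, had 3 of 4 PSs down, with 2809, 2437 and 1748 units in HS and 13513, 11155 and 11575 in control for one of them. Fructose-1,6-bisphosphatase had 4 of 4 PSs down, and one of them gave 4085, 4092 and 2670 units in HS and 27338, 24292 and 20662 in control, and fell by 2.75 (SE 0.24, adjusted p = 2.9e-08). The best match of these PSs, At1g43670, is a cytosolic form of the enzyme that serves sucrose synthesis, outside the Calvin cycle itself. Serine hydroxymethyltransferase, matched to At4g13930, had 4 of 4 PSs down, and one of them fell by 1.81. Aldolase, here by its cytosolic matches of glycolysis, was opposite, with 5 of 5 PSs up, and one like At5g03690 gave 34000, 30752 and 33429 units in HS and 4710, 4961 and 5555 in control, a rise of 2.69. A rubisco activase PS gave 63108, 50944 and 61129 units in HS and 1287, 1160 and 1407 in control, 5.50 ± 0.17 higher (SE, adjusted p = 1.13e-13), so that a gene of moderate signal became one of the brightest on the array. Rubisco activase removes inhibiting sugars from rubisco, and cereals are known to carry a heat-induced form.

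In the photosystems, an early light-induced protein (ELIP), which binds free chlorophyll under stress, gave 1214, 1294 and 1266 units in HS and 59.4, 22.7 and 11.2 in control, at least 9.29-fold higher. A PS described as a 10 kDa protein of photosystem II gave 9755, 9975 and 6776 units in HS and 710, 298 and 886 in control, a rise of 3.93.

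In mitochondrial respiration and fermentation 17 of 30 PSs rose and 5 fell (5 and 5 of 17 among the sorted names), and the families described here were chosen after their values were seen. PSs that match the copy of the mitochondrial genome on Arabidopsis chromosome 2 rose in 9 of 9 cases, by 3.56 to 5.73 on the log2 scale. Cytochrome c oxidase subunit II gave 31943, 30037 and 32033 units in HS and 942, 1017 and 853 in control, 5.07 ± 0.21 higher (SE, adjusted p = 2.22e-12), and the ATP synthase alpha chain gave 8973, 10135 and 9973 units in HS and 494, 475 and 596 in control. The alternative oxidase, which passes electrons to oxygen without making ATP, had 5 of 5 PSs up, by 2.22 to 3.40. AOX1B gave 3828, 3844 and 3556 units in HS and 308, 332 and 438 in control, a rise of 3.40 ± 0.34 (SE, adjusted p = 1.62e-07), and AOX1A rose by 2.84. Pyruvate decarboxylase, the entry to ethanol fermentation, had 4 of 5 PSs down and none up, with 1345, 1350 and 1867 units in HS and 6549, 5732 and 6095 in control for one of them.

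The glyoxylate cycle, which turns acetyl-CoA from fatty acids into sugar precursors and is best known from oil-storing seedlings and senescing leaves, had 4 of 5 PSs up. Peroxisomal beta-oxidation, which supplies that acetyl-CoA, had 13 of 21 up, 8 not called and none down, all measured in both groups, and 2 of 4 up among the sorted names. The glyoxylate list and that of branched-chain amino acids hold no sorted name. These lists and that of beta-oxidation consist wholly or for the larger part of PSs that the study chose on these samples. Their counts are therefore not independent evidence of a direction. The paper reports further PSs for citrate synthase, aconitase, isocitrate lyase and malate synthase on the array that it did not find differentially expressed. Those are not counted here.

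Malate synthase gave 6040, 6854 and 12858 units in HS against 129, 17.55 and 141 in control, a rise of 6.89 ± 1.10 (SE, adjusted p = 4.41e-05). Isocitrate lyase, the other enzyme specific to the cycle, gave 3994, 5702 and 14489 units in HS against 45.6, 84.9 and 56.0 in control, at least 51.1-fold higher (adjusted p = 0.000162). For both, HS replicate 3 was the highest array and the groups lay far apart. Citrate synthase rose by 1.21, and aconitase was 0.69 higher and not called (adjusted p = 0.0676).

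Along beta-oxidation the rises were smaller and all levels were well measured in control. ACX2, an oxidase for long chains in Arabidopsis, gave 4318, 4161 and 5655 units in HS and 976, 992 and 1226 in control, a rise of 2.14. The short-chain oxidase gave 5039, 5697 and 6474 units in HS and 1883, 2009 and 2177 in control, a rise of 1.50 ± 0.26 (SE, adjusted p = 9.01e-05). The multifunctional protein AIM1, which carries out the hydratase and dehydrogenase steps, gave 13209, 12486 and 14622 units in HS and 5300, 5684 and 6312 in control, a rise of 1.22 ± 0.18 (SE, adjusted p = 1.36e-05). The thiolase that closes each round gave 11480, 10737 and 14776 units in HS and 3578, 3446 and 3822 in control, a rise of 1.76 ± 0.25 (SE, adjusted p = 1.4e-05). ACX3, for medium chains in Arabidopsis, was 0.59 higher, under the 2-fold minimum. Catalase 2, which removes the hydrogen peroxide that the oxidases release, had 4 of 4 PSs up, with 5394, 5198 and 6928 units in HS and 542, 1134 and 880 in control for one of them. Over all antioxidant PSs, 15 of 37 rose and 3 fell (8 and 3 of 24 among the sorted names).

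Primers for 3 of these steps are shown because they fix which transcript stood for each enzyme in PCR, acyl-CoA oxidase (ACX, amplicon 172 bp), the multifunctional protein (ECH/HCD, 215 bp) and the thiolase (AAT, 164 bp), 5′ to 3′ in lower case with no part marked.
ACX forward: tccagctccgactttgttct
ACX reverse: acctgctgcagtagcgaaat
ECH/HCD forward: ctgaacctcacatgcgtgac
ECH/HCD reverse: gatgggctttcccaagtaca
AAT forward: cagcgtgcacgaaagattta
AAT reverse: tagaggcgtgaaaccaaacc

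Amino acid genes rose in several branches. Breakdown of branched-chain amino acids had 12 of 12 PSs up, with a median of 1.92 on the log2 scale. That list goes by enzyme name, whatever the compartment or the direction of the pathway. BCAT5, a branched-chain aminotransferase that is in the list by its name, gave 2588, 2490 and 6575 units in HS and 54.5, 17.8 and 19.9 in control, at least 25.8-fold higher. Isovaleryl-CoA dehydrogenase (IVD) rose by 2.54. The small subunit of acetolactate synthase, at the start of branched-chain synthesis, gave 42155, 33888 and 37403 units in HS and 447, 350 and 683 in control, a rise of 6.31 ± 0.25 (SE, adjusted p = 1.27e-12). Asparagine synthetase 1, which stores nitrogen when carbon is short, gave 27067, 24675 and 36414 units in HS and 143, 97.6 and 192 in control, a rise of 7.70. Both steps of proline synthesis rose. P5CS gave 22691, 23295 and 25159 units in HS and 2232, 2176 and 2688 in control, a rise of 3.33 ± 0.24 (SE, adjusted p = 3.42e-09), and P5CR gave 3762, 3735 and 3878 units in HS and 706, 929 and 867 in control, a rise of 2.19. Methionine synthase fell, with 88.3, 15.7 and 9.79 units in HS and 989, 977 and 853 in control for a PS like At5g17920, at least 7.54-fold lower.

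Sugar and starch genes moved in both directions. Of 25 PSs 16 rose and 4 fell (7 and 3 of 14 among the sorted names). A beta-amylase, which cuts maltose from starch, gave 5320, 5475 and 3572 units in HS and 322, 235 and 272 in control, a rise of 4.10, and the 4 PSs of the beta-amylase matches At3g23920 and At4g17090 all rose, by 1.98 to 4.10. Another match, BMY1, fell. Starch phosphorylase gave 1149, 1013 and 403 units in HS and 7318, 6104 and 4854 in control, and fell by 2.95. The fructan-making enzyme 6-SFT gave 33.6, 31.2 and 14.1 units in HS and 980, 760 and 571 in control, at least 6.04-fold lower.

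Hormone genes moved in both directions, 12 up and 11 down of 28 PSs (10 and 11 of 24 among the sorted names), and those named for jasmonate and cytokinin fell. Allene oxide synthase, which commits lipid peroxides to jasmonate, gave 2.30, 2.47 and 3.72 units in HS and 1072, 1197 and 1480 in control, at least 9.95-fold lower (adjusted p = 4.75e-08). LOX2, the lipoxygenase ahead of it, gave 91.2, 49.9 and 9.85 units in HS and 757, 424 and 680 in control, at least 4.84-fold lower. The cytokinin response regulator ARR6 gave 30.2, 27.4 and 24.1 units in HS and 1814, 2071 and 1527 in control, at least 14.4-fold lower, and a response regulator like At2g41310 fell by 3.73. IAA16, an auxin response repressor, gave 211, 268 and 288 units in HS and 6920, 5921 and 5170 in control, and fell by 4.55 (SE 0.23, adjusted p = 1.95e-11). Ent-kaurene oxidase, an early step of gibberellin synthesis, gave 267, 243 and 287 units in HS and 5584, 7039 and 8418 in control, and fell by 4.71. None of these HS arrays reached the lowest control array.

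Large falls were also found in defence, cell wall and phenylpropanoid genes. A beta-1,3-glucanase family PS like At3g57260, a pathogenesis-related protein in Arabidopsis, gave 7.98, 1.11 and 4.71 units in HS and 2265, 2454 and 2832 in control, at least 20.1-fold lower. A germin-like protein was at least 29.9-fold lower. Chalcone synthase, the first enzyme of flavonoid synthesis, gave 49.6, 68.6 and 73.3 units in HS and 6546, 5372 and 4504 in control, at least 43.5-fold lower (adjusted p = 1.13e-06). The arabinogalactan protein AGP23 gave 8.06, 13.3 and 3.02 units in HS and 1401, 1424 and 1798 in control, at least 12.3-fold lower. A plantacyanin, a small copper protein, was at least 7.81-fold lower, and RGP1, which supplies arabinose for wall polysaccharides, fell by 5.04. The ribonuclease RNS1 gave 324, 216 and 327 units in HS and 7286, 7918 and 7576 in control, and fell by 4.74. A receptor-like kinase like At2g31880 fell by 4.83, and an oligopeptide transporter was at least 32.7-fold lower.

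The lists that hold these genes were not one-sided. Defence proteins gave 11 up and 6 down of 17 (5 and 5 of 10 among the sorted names), and the acidic chitinase CHIB1 gave 4654, 4559 and 5686 units in HS and 134, 147 and 223 in control, a rise of 4.92. Thaumatin-like protein, another pathogenesis-related family, fell by 2.75. Cell wall genes gave 36 up and 10 down of 71 (14 and 10 of 43 among the sorted names), and a xyloglucan transferase, which loosens and rejoins wall chains, gave 18085, 16934 and 17897 units in HS and 520, 247 and 547 in control, a rise of 5.42. Lipid transfer proteins, secreted proteins of the epidermis and cuticle, gave 8 up and 3 down of 18 (7 and 3 of 16 among the sorted names). LTP3 gave 6778, 7603 and 6820 units in HS and 53.0, 35.5 and 41.7 in control, at least 52.1-fold higher, while a PS like At5g55450 gave 198, 160 and 282 units in HS and 8089, 7377 and 9957 in control, and fell by 5.34. Transporters and aquaporins gave 27 up and 19 down of 61 (12 and 19 of 44 among the sorted names), among them a tonoplast intrinsic protein, a water channel of the vacuole, which fell by 3.64 but was not called without HS replicate 3 or without any 1 control array. Membrane lipid synthesis gave 3 up and 6 down of 15 (1 and 6 of 12 among the sorted names).

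Genes named for drought and abscisic acid (ABA) responded in part. The paper reports relative water content in the leaf below the flag leaf, which in Cappelli was lower under HS than in control or DS. The part of leaf water in the values below was not tested. The ABA and dehydration list gave 23 up and 5 down of 54 (9 and 4 of 28 among the sorted names). Of 20 PSs that the study names in its account of drought, 9 rose, 4 fell and 7 were not called. The transcription factor MYB4 gave 7064, 7218 and 7064 units in HS and 966, 716 and 1183 in control, a rise of 2.93 ± 0.17 (SE, adjusted p = 1.67e-10). The cysteine protease RD21A rose by 2.40, the calcium-binding RD20 by 2.28 and an LEA protein, of the late embryogenesis group, by 1.95. The PSs described here for the dehydrins LTI30 and RAB18 and for RD22, in contrast, did not pass the test. The paper names further RAB18 and RD22 PSs, which are not described here. A low temperature and salt response protein, At2g38905, which the paper groups with dehydrins, was matched by 2 PSs. One of these fell by 1.11 and the other rose by 1.02. LTI30 gave 274, 259 and 332 units in HS and 259, 252 and 257 in control, RD22 gave 2672, 2540 and 857 units in HS and 1837, 1282 and 1398 in control, and both overlapped. RAB18 gave 846, 1210 and 1174 units in HS and 496, 314 and 802 in control (adjusted p = 0.156). OST1, a kinase that closes stomata on ABA in Arabidopsis, was matched by 6 PSs, of which 2 rose and 1 fell. One of the risen PSs gave 2257, 2222 and 3108 units in HS and 376, 524 and 662 in control, and the fallen one gave 735, 597 and 1115 units in HS and 2042, 1896 and 1507 in control, a call lost without HS replicate 2.

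RNA processing and chromatin genes moved in both directions, with sharp falls inside the same families. RNA recognition and splicing proteins gave 39 up and 12 down of 84, but 8 up and 12 down of 38 among the sorted names. The snRNP core protein B gave 1.67, 1.68 and 3.80 units in HS and 1278, 1061 and 1348 in control, at least 9.83-fold lower. Chromatin regulators gave 12 up and none down of 17 (3 of 7 among the sorted names), and histones 7 up and 4 down of 15 (2 and 4 of 9 among the sorted names). Ribosomal and translation PSs gave 12 up and 8 down of 52, with 32 not called (6 and 8 of 44 among the sorted names), and RPL34B fell by 3.79 but was no longer called without HS replicate 3. The RPL34B PS was under the percentile on every Ofanto HS and control array. Of the 8 that fell, 6 have identifier numbers from 14750 to 15249, a run of the array's numbering in which 56 of 163 tested PSs fell. Senescence-associated proteins gave 3 up and 6 down of 11, all of sorted names. One like At5g66170 was at least 9.01-fold higher, and one like At5g47060 fell by 3.34 in log2.

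Of 494 Arabidopsis genes matched by at least 2 tested PSs, 19 had PSs called in both directions. Histone H2A (At1g54690) and HSP101 were among them. The risen PS of H2A gave 1719, 2127 and 1097 units in HS and 4.50, 5.96 and 2.24 in control, at least 11.7-fold higher, and the fallen PS gave 108, 45.5 and 33.4 units in HS and 1295, 1276 and 1959 in control, at least 11.9-fold lower. In Ofanto the fallen H2A PS was under the percentile on every HS and control array. The splicing regulator SR45 had 4 PSs up and 4 down of 10. One of the risen gave 14828, 14797 and 16093 units in HS and 2622, 2837 and 2374 in control, and one of the fallen gave 71.0, 51.8 and 96.6 units in HS and 439, 405 and 470 in control. A splicing factor with a PWI domain had 6 up and 5 down of 14. Among the fallen PSs named above, the HSP101 PS with 51.9, 75.8 and 18.6 units in HS, those of H2A and the PWI factor, calreticulin 3, ent-kaurene oxidase and the kinase like At2g31880 also carry identifier numbers from 14750 to 15249.

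**Figure D3:**
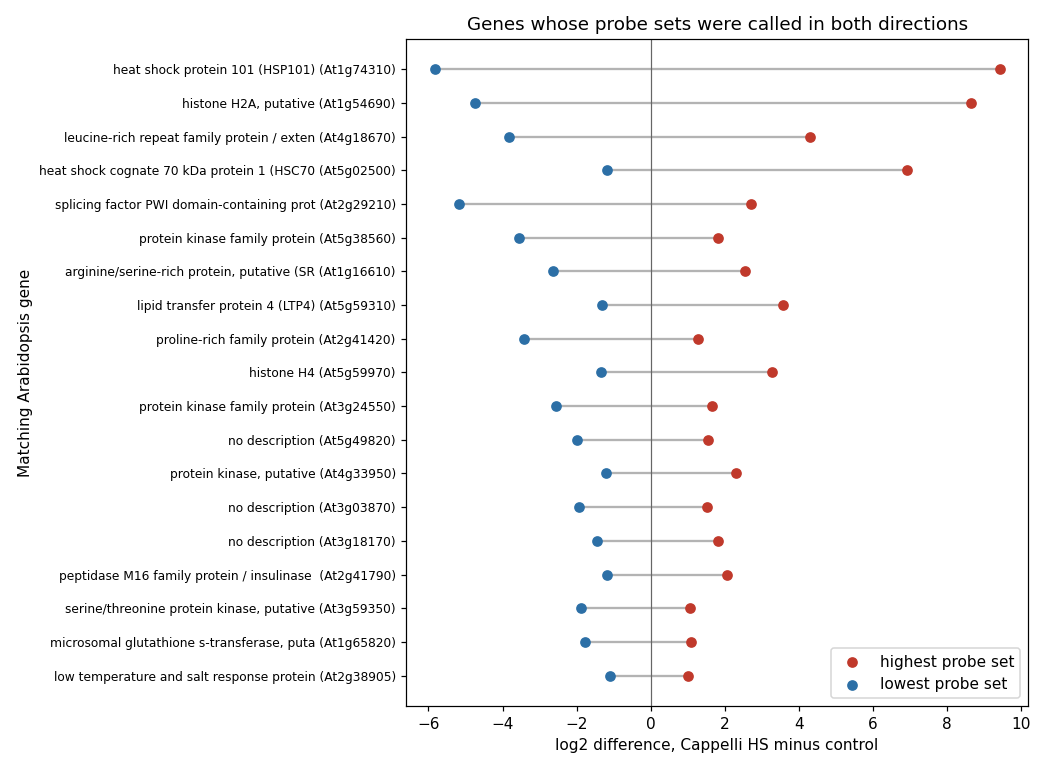
The 19 Arabidopsis genes whose matching PSs were called in both directions, with the highest and the lowest fitted log2 difference (Cappelli HS minus control) of each gene. Each gene has a point on either side of 0, and where a group lay under the 60th percentile on all its arrays, as for HSP101 and histone H2A, the plotted size is not exact.

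Markers of leaf cell types were looked up by name among the tested PSs. The mesophyll names took in rubisco activase and a rubisco-binding chaperonin, but missed the antenna proteins CP26 and LHCB3, whose names are spelt otherwise. All 14 mesophyll markers found were above the 60th percentile on every control array, 9 rose and 4 fell. Their summed signal was 104893 to 118536 in HS and 27579 to 30208 in control. The mean of rubisco activase alone was 58394 in HS and 1285 in control. CP26 had a mean of 5518 in HS and 46524 in control, and LHCB3 12314 and 45489, so the sum gives no direction for mesophyll genes. The 18 epidermis and cuticle markers, mainly lipid transfer proteins, summed to 197841 to 320470 in HS and 154272 to 172523 in control, and the 3 phloem markers to 8945 to 9349 in HS and 1818 to 2231 in control, with all 3 called up. The 16 markers of dividing cells, mainly histones, gave 8 up and 4 down and summed to 71597 to 88970 in HS and 46971 to 49371 in control. The 3 anther and pollen markers, of a pollen Ole e 1 family name, summed to 7889 to 9561 in HS and 8519 to 10309 in control. No tested PS carried a grain or root marker name. The part of cell makeup in the gene changes above was not tested.

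Ofanto was heated in the same way. By the same test Ofanto HS called 2916 PSs up (10.4 percent) and 2095 down (7.46 percent). The difference between the responses was tested directly: 1497 PSs (5.33 percent) had the higher and 2354 (8.39 percent) the lower HS response in Cappelli. Of the 3135 PSs that rose in Cappelli, 918 rose by more than in Ofanto and 41 by less, and of the 3805 that fell, 1245 fell by more and 8 by less. A fall could not be measured where a PS, such as that of chalcone synthase, was under the percentile in Ofanto control. The Cappelli arrays enter both the response and the difference, so these shares describe the PSs and are no test. With each array centred on its median the split of the difference calls was 1052 higher and 2614 lower. The Ofanto controls differed in RNA checks: their spike-in signal was 11.44 to 11.73 and their 3' minus 5' difference 2.27 to 2.43, against 10.81 to 10.83 and 1.03 to 1.22 in Ofanto HS, and 2 of the 3, replicates 2 and 3, are described with the drought treatment although titled control. With Ofanto control read from replicate 1 alone, 882 PSs were called higher and 1712 lower.

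**Figure D4:**
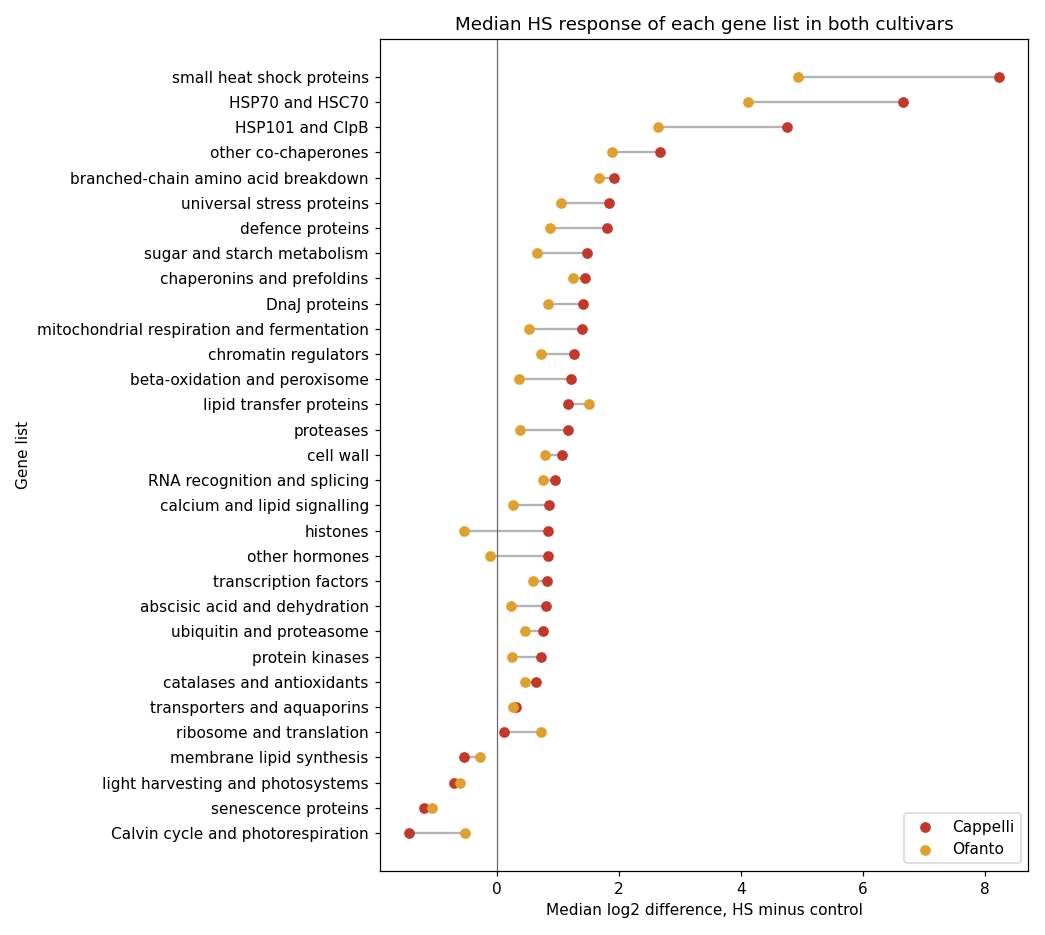
Median log2 difference, HS minus control, of each gene list with at least 9 PSs in Cappelli and in Ofanto. The sHSP list had a median of 8.23 in Cappelli and 4.94 in Ofanto. The Calvin cycle and photorespiration list, which also holds cytosolic matches, had -1.43 and -0.51.

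Chaperone lists were higher in both cultivars. The sHSP list had 9 PSs with a larger response in Cappelli and 2 with a smaller one, and its median was 8.23 in Cappelli and 4.94 in Ofanto. ClpB rose more in Cappelli on 3 of 3 PSs. For rubisco activase a difference was not called: it gave 60466, 60368 and 61598 units in Ofanto HS and 1656, 1589 and 1506 in Ofanto control, a rise of 5.26 there, and the difference between cultivars was 0.24 (adjusted p = 0.48). ROF1 rose by 5.22 in Ofanto, with a difference of 0.24 that was not called.

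For malate synthase, isocitrate lyase, the alternative oxidases and P5CS a larger response in Cappelli was called by the test of the difference. Malate synthase gave 78.1, 108 and 27.1 units in Ofanto HS and 161, 154 and 15.2 in Ofanto control. Isocitrate lyase gave 58.6, 4.13 and 15.1 units in Ofanto HS and 54.2, 7.78 and 4.25 in Ofanto control. Both genes were thus near background in Ofanto under either condition. The difference for isocitrate lyase was not called with every array centred on its median (6.38) or from the 12 arrays alone (6.50). The 5 alternative oxidase PSs differed by -0.20 to 0.54 between Ofanto HS and Ofanto control, and the difference between the cultivars was called for all 5, though for AOX1A not with Ofanto control read from replicate 1 alone (2.61). P5CS gave 6548, 7408 and 6824 units in Ofanto HS and 5464, 5406 and 4758 in Ofanto control, so that Ofanto control was already above Cappelli control and Ofanto HS below Cappelli HS. Of the 9 mitochondrial genome PSs 6 rose more in Cappelli.

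Among the falls, chalcone synthase was near background in Ofanto, at 9.04, 2.26 and 8.62 units in Ofanto HS and 3.31, 4.40 and 2.01 in Ofanto control. IAA16 gave 7891, 6745 and 7039 units in Ofanto HS and 6070, 6045 and 5849 in Ofanto control, levels close to those of Cappelli control, and differed there by 0.27. RNS1 differed by 0.05 in Ofanto. CP26 gave 42420, 41774 and 44160 units in Ofanto HS and 69433, 79220 and 81591 in Ofanto control, a difference of -0.84.

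Drought alone, at the same temperature as control, called 250 PSs up (0.891 percent) and 125 down (0.445 percent) in Cappelli, and CS, with heat, 2776 up (9.89 percent) and 3310 down (11.8 percent). These comparisons share the Cappelli control arrays with the heat comparison, so their values are only set side by side. HSP18.1-CI gave 1.27, 1.77 and 2.07 units in DS and 50170, 45054 and 34561 in CS, beside the HS and control levels given above. P5CS differed from control by 3.33 in HS, 2.60 in DS and 3.59 in CS. Rubisco activase differed by 5.50 in HS, 1.71 in DS and 5.61 in CS.

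Between CS and HS few PSs were called: 146 were higher in CS (0.52 percent) and 112 lower (0.399 percent). The median SD over PSs was 0.32 in Cappelli CS and 0.27 in Cappelli HS on the log2 scale, the widest of the 8 groups. A low count of calls is thus no measure of likeness. Of the 3805 PSs that fell in HS, 112 were higher in CS than in HS and 1 was lower, and of the 3135 that rose, 39 were lower in CS and 3 higher. IAA16 was 1.81 and the senescence-associated PS like At1g78020 1.45 higher in CS than in HS on the log2 scale. Chalcone synthase was called higher in CS, at 225.5, 1253 and 1376 units against signals under the percentile on every HS array. All 3 are genes that fell in HS. HS values enter both comparisons, so this is a description of the HS arrays as well.

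**Figure D5:**
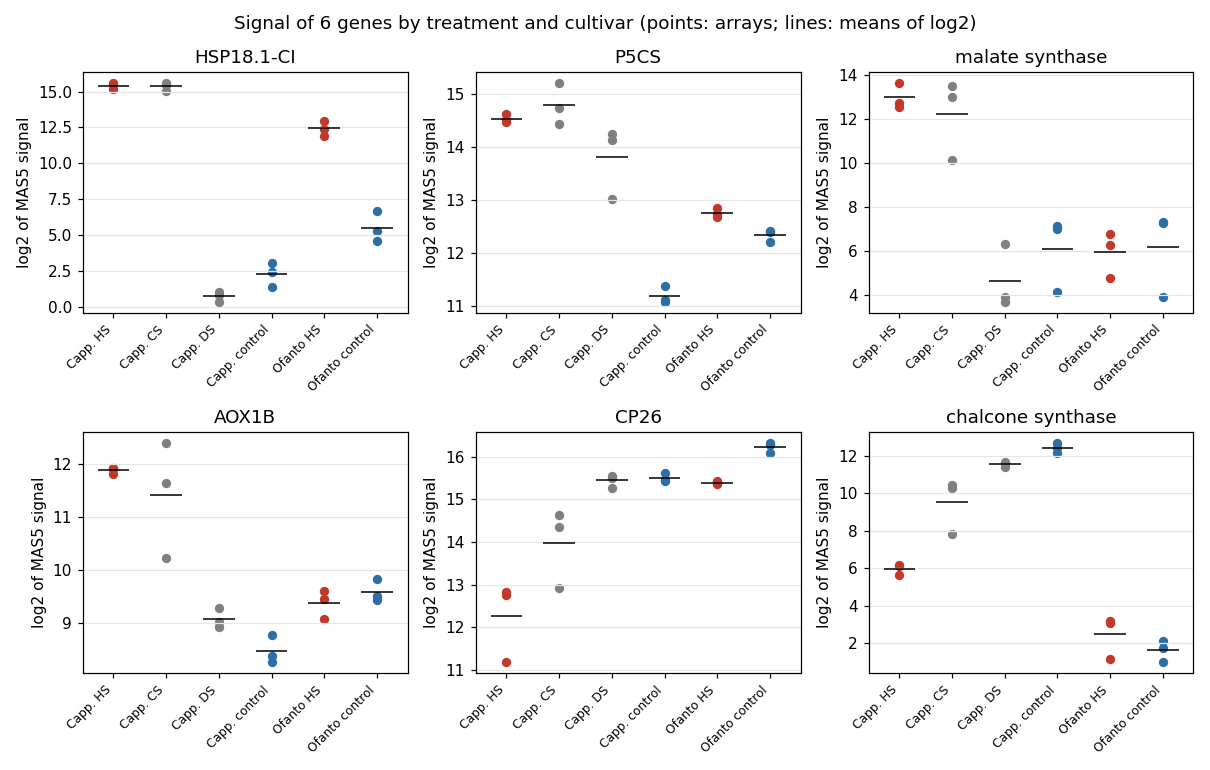
Log2 of the MAS5 signal of 6 PSs on each array of Cappelli HS, CS, DS and control and of Ofanto HS and control (points), with the mean of the log2 values of each group (lines). HSP18.1-CI reached 3892 units or more on every heated array plotted, malate synthase 1132 units or more on the heated Cappelli arrays and 161 or less on the others, and CP26 and chalcone synthase are lowest in HS among the Cappelli groups.

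Some of the largest changes belonged to PSs without a description, and the 3 given here were chosen after their values were seen. A PS matching At5g07330 gave 5536, 10057 and 21604 units in HS and 2.78, 5.18 and 5.76 in control, at least 78.6-fold higher. Another, with no Arabidopsis match, gave 35.8, 2.17 and 2.62 units in HS and 15353, 23829 and 28605 in control, at least 176-fold lower. The third, also without a match, gave 30.3, 14.5 and 15.6 units in HS and 37595, 39805 and 41068 in control, at least 317-fold lower (adjusted p = 6.08e-13), so a transcript among the brightest of control leaves was at background in HS.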

How the data were processed

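RNA of durum wheat flag leaves was hybridised by the authors to the Affymetrix Wheat Genome Array, 1 array per sample, and the deposited values are signals, a linear intensity, made with MAS5 per the labels. The paper's methods name RMA and Welch's test, but the deposited values are not RMA values. From them log2 was taken with no offset. PSs were kept by the percentile rule given above (percentile 60 of the array, in at least 1 of 8 groups), 28072 of 61179 after the array's own controls. limma 3.58.1 (lmFit and eBayes, R 4.3.3) was fitted to 8 group means over 24 arrays, with 16 residual degrees of freedom and 1.97 prior ones, and p-values were adjusted over all PSs kept. Tables were handled in Python 3.11.15 with pandas 2.3.3. The fit was tested on simulated data.

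Members, gene lists and tests were chosen with earlier results of these data known. PSs named in the text are a part of those picked by fixed rules: the largest changes without overlap, the largest among PSs measured in both groups, the extremes and the brightest of each list, PSs named by the paper for signalling, fatty acid breakdown, the glyoxylate cycle, senescence and PCR, and the largest cultivar differences. Others were chosen after their values were seen: the family, mitochondrial, photosynthetic, amino acid and splicing examples, the second and fallen PSs of a gene, and the PSs without a description. The authors' comparison columns in the paper's tables were not used, and only names were read from those tables. Primer sequences were copied from the study's primer list. The alternatives tried were other filters, scalings, offsets, sample sets and thresholds, the methods' t-test, a replicate block and leaving out each array. The number of arrays limits the precision.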

Additional observations from a re-analysis of the deposited data

Results flagged for a closer look

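The response to heat differed between the cultivars for 67 of the 118 PSs described, by limma's test of the difference itself (adjusted p under 0.01 and at least 2-fold), with 36 higher and 31 lower in Cappelli. Over all PSs tested, 5.33 percent were higher and 8.39 percent lower. Many of the 118 were picked for large changes in Cappelli HS or for large cultivar differences on these same arrays. Their share of calls therefore follows in part from that choice and is no evidence about other PSs. Each value below is the log2 difference, HS minus control, of Cappelli minus that of Ofanto, over 3 arrays a group, and the cause was not tested. Where a group was under the 60th percentile the value has no exact size. A value below 0 means a smaller rise or a larger fall in Cappelli, or a fall that could not be measured in Ofanto.

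Heat shock factors and chaperones that rose had values above 0: 3.27 for RHSF11, 6.24 for HSP18.1-CI, 4.69 for the HSP25.3-P PS that was dim in control, 1.88 for the HSP25.3-P PS measured in control, 1.79 for HSP17.6C-CI, 5.06 for HSP22.0-ER and 5.10 for HSP26.5-P. Larger chaperones and their partners gave 3.85 for HSP81-1, 2.61 for ClpB-type HSP100, 2.07 for DnaJ protein like At2g20560, 1.25 for CPN60, 1.71 for SGS domain protein and 1.64 for universal stress protein. Chaperone PSs with a value below 0 were -2.54 for the second HSP18.1-CI PS, -1.50 for small HSP like At2g29500, -3.37 for the HSP101 PS dim on every HS array, -4.40 for the other fallen HSP101 PS and -3.71 for HSP70 like At3g09440, and the first 2 of these rose in Ofanto, by 2.42 and 2.17.

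In organelles, import and protein turnover the values were 7.60 for TIM17/TIM22/TIM23 family protein, 2.61 for cytochrome c oxidase subunit II, 3.61 for mitochondrial ATP synthase alpha chain, 3.60 for AOX1B, 2.59 for AOX1A, 2.70 for FtsH protease, 3.44 for XBCP3 and -1.27 for F-box protein like At1g27340. For photosynthesis they were 5.47 for ELIP, -2.40 for CP26, -2.06 for PsbQ family protein and -1.41 for GLK1. In the list of Calvin cycle and photorespiration names they were -1.41 for fructose-1,6-bisphosphatase, -1.45 for serine hydroxymethyltransferase and 1.95 for fructose-bisphosphate aldolase. Fat and sugar metabolism gave 7.13 for malate synthase, 6.50 for isocitrate lyase, 2.26 for ACX2, 2.01 for catalase 2 and -2.58 for 6-SFT. Amino acid metabolism gave 3.53 for BCAT5, 1.92 for acetolactate synthase small subunit, 4.89 for asparagine synthetase 1, 2.92 for P5CS, 1.37 for P5CR and -5.43 for methionine synthase.

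Among the hormone, defence and cell wall PSs described, values below 0 were -4.29 for allene oxide synthase, -4.82 for IAA16, -5.94 for beta-1,3-glucanase family protein, -5.65 for germin-like protein, -7.29 for chalcone synthase, -7.08 for AGP23, -4.79 for RNS1, -5.24 for plantacyanin and -3.42 for RGP1. Germin-like protein, chalcone synthase and plantacyanin were under the percentile on every Ofanto HS and control array, so no fall could be measured there. AGP23 was above it on only 2 Ofanto control arrays. Secreted, membrane and kinase genes gave -4.49 for lipid transfer protein like At5g55450, 3.19 for LTP3, 4.04 for CHIB1, -4.35 for oligopeptide transporter and -2.10 for LRR kinase like At2g31880. Drought-named and senescence genes gave 1.01 for MYB4, -1.02 for LTI30, -1.70 for RD22 and -3.43 for the senescence-associated PS like At1g78020. The remaining values were 5.08 for the risen histone H2A PS, -2.81 for the fallen PS of the PWI splicing factor, 8.13 for the PS like At5g07330, -7.28 for the PS with 35.8, 2.17 and 2.62 units in HS and -4.18 for the PS with 30.3, 14.5 and 15.6 units in HS.

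Of the 67 differences, 39 were called in the same direction with Ofanto control read from its 1 array that has a control description, 63 with every array centred on its median, 48 without the filter on dim PSs and 53 from the 12 arrays compared alone. Leaving out 1 array kept 53 to 60, with 54 without Cappelli HS replicate 3. The Ofanto control arrays had a 3' minus 5' difference of 2.27 to 2.43 and a spike-in signal of 11.44 to 11.73 on the log2 scale, above every Cappelli and Ofanto HS array in the first measure, and their part in these differences was not tested.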

How the results depend on the processing

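The counts of PSs called in HS against control, 3135 up and 3805 down, were 2783 to 3565 up and 3191 to 4410 down under the other filters, scalings, offset, sample sets, adjusted p under 0.05 and the trended fit. Centring gave 3422 and 3488, quantile normalization 3377 and 3583. The methods' t-test at their threshold gave 2128 up and 2231 down without adjustment and 556 up and 565 down after Benjamini-Hochberg. With no minimum fold, 5388 rose and 5627 fell. Leaving out 1 array gave 2887 to 3035 up and 3396 to 3756 down. The correlation of deviations between HS and control arrays was 0.035, 0.00659 and 0.0733 for equal replicate numbers and -0.0537 to 0.0366 for unequal ones. These small values do not settle whether the numbers pair the samples. The paper describes randomized blocks, and whether the replicate numbers follow them is not known. With a replicate block in the fit, 3116 PSs were called up and 3778 down.

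The cultivar difference, 1497 higher and 2354 lower, was 882 higher and 1712 lower with Ofanto control by 1 array, 1013 and 1615 without the filter on dim PSs, 1423 and 2244 with the replicate block, and 1210 to 1491 and 1939 to 2418 leaving out 1 array. Higher calls made up 38.9% of these calls as deposited, 28.7% after centring and 43.4% after quantile normalization, and the cause was not tested.

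Of the 118 PSs described, 6 changed their call under some setting and none reversed. HSF4, HSC70-1, the fallen OST1 PS and RPL34B lost theirs on leaving out HS replicates 3, 1, 2 and 3, at 0.73, -0.84, -0.99 and -3.45. HSF4 also lost it without control replicate 2 (0.96) and HSC70-1 without control replicate 1 (-1.08). The tonoplast intrinsic protein lost its call without HS replicate 3 (-3.41) or without any 1 control array. With only the 6 arrays compared, HSF4 (1.11), HSC70-1 (-1.17) and the fallen OST1 PS (-1.19) lost their calls, and the HSF like At2g26150 was called (2.27), as it was with an offset of 32 (1.92). With only those 6 arrays, 4 of 72 list counts moved by over 1.5 times: the PSs down numbered 1 for HSP70 (2 in the fit of all arrays), 1 for co-chaperones (0), 2 for histones (4) and 3 for ABA (5). Naming lists from the array's own annotation was not run, since 19 PSs have a usable symbol there. Signals under the percentile carry no exact size.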

Other observations

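Falls were uneven along the numbering of the array. In windows of 250 identifier numbers with at least 50 tested PSs (112 windows), a median of 12.3% of PSs fell, and the lowest window had 3.21%. The highest were 14750 to 14999, with 34 of 90 PSs down, 22500 to 22749, with 55 of 168 down, and 15000 to 15249, with 22 of 73 down. This was noticed after the values were seen and no test was made. Over 14750 to 15249, 56 of 163 PSs fell and 19 rose. The median signal of those 56 was 183, 137 and 183 units in Cappelli HS and 1209, 1696 and 1934 in Cappelli control. In Cappelli CS it was 384, 377 and 200 units, in Cappelli DS 1009, 773 and 1138, in Ofanto HS 91.6, 63.4 and 89.9, and in Ofanto control 312, 286 and 289. Of the 56, 35 were called down in CS, 1 was called in DS and 17 were called down in Ofanto HS. The run holds 6 of the 8 fallen ribosome and translation PSs, both fallen ER folding PSs, 3 of 12 fallen splicing PSs and 1 of 4 fallen histone PSs.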
